A study of Plutella xylostella with 12 samples.

Results

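Among the 19364 features counted in whole larvae of the diamondback moth, Plutella xylostella, 296 genes were read at a higher share in each of 6 cold libraries than in any of 6 warm ones, and they are described here. They were chosen on counts per 1000000 gene reads of a library (CPM). A member has an identifier that starts with LOC and averages under 500 CPM over the 12 libraries. Its lowest 10 °C library lies above its highest 25 °C library, its mean at 10 °C is at least 5 CPM, and that mean is at least 2 times the mean at 25 °C. Of 18895 LOC genes, 9643 met the limits on level, 498 of those (5.16%) had temperatures that did not overlap with the cold libraries higher, and 296 also met the ratio. Another 5 identifiers were to be left out by name, and none of them met the other limits. Since the readout chose the members, their difference between temperatures is a description and carries no test.

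The libraries came from a laboratory population that had been kept on cabbage at 25 °C for generations after its collection in Australia. All larvae grew at 25 °C until early in the third instar. They were then held at 10 °C or kept at 25 °C, and were taken at the middle of the fourth instar, after a number of days that the labels do not state. Each library is polyadenylated RNA from the whole bodies of 8 pooled larvae of 1 sex. There are 3 libraries of females and 3 of males at each temperature, called female 10 °C replicates 1, 2 and 3, male 10 °C replicates 1, 2 and 3, female 25 °C replicates 1, 2 and 4, and male 25 °C replicates 1, 2 and 3. They hold between 10183278 and 30106219 gene reads, and 3 reads, taken as the floor, stand for 0.0996 to 0.295 CPM depending on the library.

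The diamondback moth is a pest of cabbages and their relatives whose larvae feed on leaves, and as an insect it takes its body temperature from its surroundings. In larvae moved to the cold, feeding, growth and moulting slow down, and insects in general alter the lipids of their membranes, their energy stores and their protective proteins when they are chilled. In moths, females carry the unlike sex chromosomes Z and W and males have a pair of Z chromosomes, and male larvae hold testes in which sperm cells are already forming. A whole body sums gut, fat body, muscle, cuticle, nerve and gonad, and in such bulk samples fewer cells of a type and less RNA per cell cannot be told apart.

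None of the members carries a gene name. The RefSeq gene table of the assembly ilPluXylo3.1 lists 220 of the 296 identifiers, and 0 of these have a symbol other than the identifier. The table pairs no product with them, so no function is given for any member and no list of a pathway could be filled. They are therefore described by level, by the width of the gap between temperatures, by sex, by library and by the shape and place of their gene models.

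The difference was moderate for most members. The ratio of the mean at 10 °C to the mean at 25 °C had a median of 2.63, with quartiles of 2.22 and 3.39. It lay between 2 and 2.5 for 125 members, between 2.5 and 4 for 113, between 4 and 8 for 41, and at 8 or more for 17. The other 9347 LOC genes at the same levels had a median ratio of 1.59, so a higher share in the cold libraries was also common outside the 296. For most members the gap between the closest libraries was narrow as well. The lowest 10 °C library was at least 1.1 times the highest 25 °C library for 197 members, at least 1.5 times for 33 and at least 2 times for 13. At the limits, LOC105384872 is inside with a ratio of 2.001 and LOC105388098 is outside with 1.995. LOC105388816 is inside with its closest libraries at 3.886 and 3.880 CPM, and LOC105382289 is outside with 12.08 CPM in its lowest 10 °C library and 12.09 in its highest 25 °C library. LOC105397924, with a 10 °C mean of 5.04 CPM, stood just above the limit on level, and LOC105386801, with 4.997 CPM, just below it. Without the upper limit on level 3 more genes would have entered, LOC105387387, LOC105397401 and LOC105389981, with means of 619.1, 696.3 and 1841 CPM over the 12 libraries, and LOC105394054 was the highest inside it with 466.2 CPM.

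The widest gap belonged to LOC105383387, a gene of 2 exons and 2310 exon bases at 246337 to 252551 of scaffold NW_011952089, on the minus strand. It was read at 28.8, 42.8 and 32.9 CPM in females at 10 °C and at 28.8, 47.4 and 26.4 CPM in males at 10 °C. At 25 °C it stood at 1.79, 3.05 and 2.96 CPM in females and at 3.58, 0.576 and 4.28 CPM in males. Even the closest libraries lie 6.17 times apart, and both sexes show the same picture. The means were 34.5 ± 8.59 CPM at 10 °C and 2.71 ± 1.33 CPM at 25 °C (SD, n = 6 each), a ratio of 12.8, with a log2 difference of 2.99 ± 0.46 (SE) in the edgeR fit. Nearly all its reads, 99.9%, were placed uniquely and 3.63% fell in introns, which makes it one of the members whose counts belong to a single locus.

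LOC105398495, a gene of 3 exons whose reads were all unique, had a similar ratio of means but far less even libraries. It had 20.3, 4.81 and 17.0 CPM in females at 10 °C and 17.1, 7.86 and 26.3 CPM in males at 10 °C. Levels at 25 °C were 1.79, 0.891 and 0.370 CPM in females and 1.72, 0.988 and 1.07 CPM in males. The lowest cold library here is female 10 °C replicate 2, which is the highest cold library for most other members, and by the rule the groups do not overlap. Means of 15.6 ± 7.97 and 1.14 ± 0.54 CPM (SD, n = 6 each) gave a ratio of 13.7.

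For LOC105395530, a gene of 10 exons, a single library stood far above the rest. Its levels in females at 10 °C were 6.69, 31.3 and 10.3 CPM, against 5.32, 4.78 and 4.97 CPM in males at 10 °C. At 25 °C they were 1.51, 1.53 and 0.222 CPM in females and 0.573, 1.24 and 0.282 CPM in males. Female 10 °C replicate 2 stands about as far above the other cold libraries as those stand above the warm ones. That the 5 others alone keep the temperatures apart follows from the rule, which uses the lowest cold library. The ratio of means was 11.9, with an SD at 10 °C (10.4 CPM) as large as the mean (10.6 CPM, n = 6).

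Members with many exons lie near each other on scaffold NW_011952171. LOC105386891 has 37 exons between 624608 and 636395, LOC105386888 has 40 exons between 680263 and 695016, both on the minus strand, and neither has a single intron read. LOC105386891 was read at 17.7, 87.1 and 16.5 CPM in females at 10 °C and at 15.7, 14.7 and 19.2 CPM in males at 10 °C. Its 25 °C levels were 1.98, 4.77 and 0.444 CPM in females and 1.29, 0 and 0.563 CPM in males. Apart from female 10 °C replicate 2 the cold libraries are nearly level, and the ratio of means was 18.9. LOC105386888 stood higher per length, at 43.2 ± 17.7 TPM (the authors' level per exon length) against 6.44 ± 7.51 TPM for LOC105386891 at 10 °C (SD, n = 6 each). It had 231.8, 174.5 and 244.3 CPM in females and 249.8, 124.8 and 385.8 CPM in males at 10 °C. At 25 °C it had 77.3, 13.4 and 23.9 CPM in females and 46.5, 58.9 and 63.5 CPM in males. The cold libraries are thus all above the warm ones, and the ratio of means was 4.98, but the order of libraries differs from that of LOC105386891: for LOC105386888 male 10 °C replicate 3 is highest. Unique reads were 78.6% and 69.3% of their totals, so part of both counts could belong to other copies of a similar sequence.

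The only run of 3 neighbouring members was LOC105387486, LOC105387485 and LOC105387484 between 277007 and 290726 of scaffold NW_011952189, the first on the plus strand and the others on the minus strand. LOC105387485 had 17.4, 39.3 and 19.6 CPM in females and 11.5, 14.1 and 12.8 CPM in males at 10 °C, and between 2.29 and 3.94 CPM in the 25 °C libraries. LOC105387484 had 22.5, 51.6 and 35.2 CPM in females and 22.1, 22.9 and 24.2 CPM in males at 10 °C, and between 4.59 and 8.14 CPM at 25 °C. LOC105387486 had 9.77, 23.1 and 11.3 CPM in females and 7.81, 9.43 and 8.33 CPM in males at 10 °C, and 0.659 to 5.27 CPM at 25 °C. In all 3 genes female 10 °C replicate 2 is the highest library. The ratio of means was 6.02 for LOC105387485, 4.56 for LOC105387484 and 4.03 for LOC105387486. In the same order the ratio was 8.94, 4.97 and 6.65 within females and 3.65, 4.03 and 2.39 within males, and this difference between the sexes did not pass the test given further on.

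In all, 13 members had a gap of at least 2, the last 3 of them being LOC105397997 (2.13), LOC105392472 (2.02) and LOC105387677 (2.02). LOC105383795 averaged 8.07 ± 1.59 CPM at 10 °C and 1.88 ± 0.83 CPM at 25 °C (SD, n = 6 each), LOC105382831 averaged 56.0 ± 18.4 and 12.1 ± 2.79 CPM, and LOC105387547 averaged 91.8 ± 33.6 and 17.4 ± 9.46 CPM. Of the reads of LOC105387547 only 3.27% were unique. LOC105388592, a single exon of 568 bases, had no unique read at all, and its levels (5.03 to 9.57 CPM at 10 °C, 0 to 1.15 CPM at 25 °C) cannot be assigned to this locus.

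**Figure D1:**
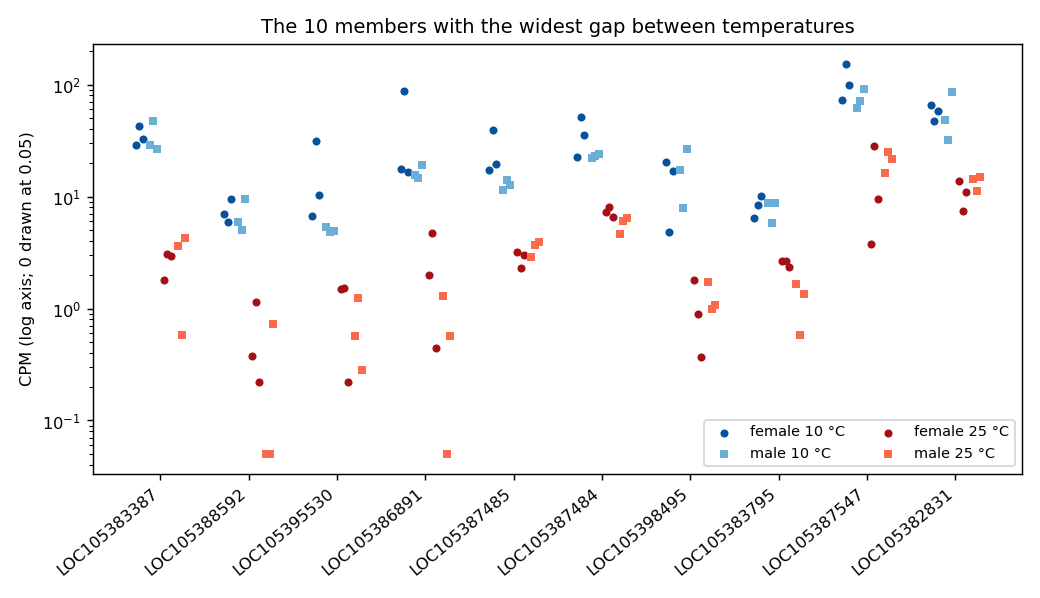
CPM in each of the 12 libraries (log axis, a level of 0 drawn at 0.05) for the 10 members with the largest ratio of the lowest 10 °C library to the highest 25 °C library, with females as circles and males as squares. Blue points at 10 °C lie above red points at 25 °C for every gene, by the rule, and single high blue circles in LOC105386891, LOC105395530 and LOC105387485 are female 10 °C replicate 2.

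The largest ratios came mostly from members that were scarcely read at 25 °C, and several rest on few reads or on 1 library. The ratio of 120.3 for LOC105394901 sets 499 reads at 10 °C against 4 reads at 25 °C, all 4 in female 25 °C replicate 2. It had 3.20, 9.23 and 5.67 CPM in females and 6.94, 0.440 and 5.13 CPM in males at 10 °C, and 85.7% of its reads lay in introns while 12.5% were unique. LOC105388971, with a ratio of 17.9, had 98.1% of its reads in introns. Its level was 19.7 CPM in female 10 °C replicate 2 and 1.01 to 2.95 CPM in the other cold libraries. LOC105380974 had 5.15, 65.7 and 15.9 CPM in females and 68.1, 9.62 and 5.30 CPM in males at 10 °C, against 0 to 4.26 CPM at 25 °C. Its ratio of 17.6 therefore comes largely from 1 library of each sex. LOC105390361 had 25.3 CPM in female 10 °C replicate 2 and 1.096 to 4.91 CPM in the other cold libraries, against 0 to 0.824 CPM at 25 °C. LOC105380560 (ratio 14.8, 27.3% unique reads) and LOC105389989 (ratio 12.7, 98.2% unique reads) averaged 7.14 ± 3.69 and 5.26 ± 2.45 CPM at 10 °C and 0.483 ± 0.84 and 0.415 ± 0.36 CPM at 25 °C (SD, n = 6 each). In all, 12 members had 0 reads in at least 1 warm library and 0 members had none in all 6.

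The ratios of the 12 most read members lay between 2.03 and 4.98. LOC105394054, a gene of 3 exons and 944 exon bases, was the most read at 10 °C. Its levels there were 719.7, 579.3 and 753.7 CPM in females and 519.6, 627.6 and 669.7 CPM in males. At 25 °C they were 351.0, 323.5 and 204.1 CPM in females and 281.6, 258.5 and 306.2 CPM in males. The ratio of means was 2.24. In TPM it was also the highest of the members, with 880.8 ± 132.1 at 10 °C and 324.2 ± 93.3 at 25 °C (SD, n = 6 each). Its neighbour on the scaffold, LOC105394055, is a member too.

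LOC105392770, of 8 exons, was also among the most read members. It had 219.5, 246.9 and 280.4 CPM in females and 249.1, 197.7 and 257.6 CPM in males at 10 °C. At 25 °C it had 80.8, 138.6 and 41.97 CPM in females and 58.3, 66.1 and 75.4 CPM in males. Every cold library was at 1.43 times the highest warm one or more, which was female 25 °C replicate 2. The ratio of means was 3.15, and in TPM the means were 215.8 ± 45.3 and 56.6 ± 35.4 (SD, n = 6 each).

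Among the other 10 of the 12 most read members, LOC105386888 is described above and LOC105393935 had a ratio of 2.84. The ratios of the remaining ones lay between 2.03 for LOC105392115 and 2.22 for LOC105380221. LOC105392115 (386.7 ± 99.2 CPM at 10 °C, 190.6 ± 30.8 CPM at 25 °C) had 35.7% unique reads. LOC105390751 averaged 315.4 ± 47.9 and 146.1 ± 37.9 CPM with all reads unique, and LOC105392786 averaged 295.3 ± 44.7 and 140.0 ± 48.3 CPM with a gap of 1.01 times (224.3 CPM in male 10 °C replicate 2 against 223.1 CPM in female 25 °C replicate 2). LOC105384366, LOC105394770 and LOC105383899 averaged between 190.9 and 230.7 CPM at 10 °C and between 87.2 and 105.8 CPM at 25 °C. LOC105382588 averaged 229.3 ± 87.1 and 106.2 ± 27.1 CPM, with 397.4 CPM in female 10 °C replicate 2 and at most 228.0 CPM in the other cold libraries.

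The sum over the members varied from library to library, also within a temperature, and whether single members moved together was not tested. Their summed level was 11091, 15958 and 13342 CPM in females and 11203, 9578 and 13247 CPM in males at 10 °C. At 25 °C it was 5256, 6623 and 3272 CPM in females and 4476, 4355 and 4846 CPM in males. At 10 °C the order of these sums is the order of the scaling factor that edgeR's trimmed mean of M values (TMM) gave each library, a factor that brings the bulk of genes to a common level. Cold females had factors of 1.15, 1.65 and 1.38 and cold males 1.21, 0.944 and 1.34. Warm females had 0.861, 1.17 and 0.588 and warm males 0.737, 0.774 and 0.737. The 100 most abundant genes took 33.2% to 42.1% of the reads at 10 °C and 38.2% to 49.0% at 25 °C. The 13 mitochondrial protein genes took 4.09% to 9.85% at 10 °C and 5.96% to 12.3% at 25 °C. The part of these shares in the members' difference was not tested beyond the scaled values that follow.

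After division by the TMM factor, the members' sum was 9716 ± 293 CPM at 10 °C and 5931 ± 394 CPM at 25 °C (SD, n = 6 each), against 12403 ± 2253 and 4805 ± 1111 CPM before it. The spread within each temperature fell with the scaling, and so did the distance between temperatures. On this scale all 296 members still had the higher mean at 10 °C, with a median ratio of 1.68 against 1.02 for the other genes at the same levels. The temperatures stayed free of overlap for 100 of the 296, where 2.03% of the 9643 genes at these levels did so on that scale and 5.16% on the unscaled one. Of the 100, 63 also kept a ratio of at least 2, which 1.23% of the 9643 genes reached. Because the members were picked on the same libraries, nothing is read from these shares.

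LOC105383387 kept a ratio of 7.98 after scaling, LOC105398495 one of 8.79, LOC105395530 one of 7.35, LOC105386891 one of 12.8, LOC105386888 one of 3.03 and LOC105392770 one of 2.09, each with no overlap. All 10 members with the widest gaps remained free of overlap. LOC105394054, the most read, had a scaled ratio of 1.44 with overlap, and so had LOC105392115 (1.26), LOC105392786 (1.38) and LOC105382588 (1.33). LOC105390751 kept the temperatures apart at a ratio of 1.38. LOC105390361, whose ratio was 14.99 before scaling and 8.48 after it, overlapped.

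**Figure D2:**
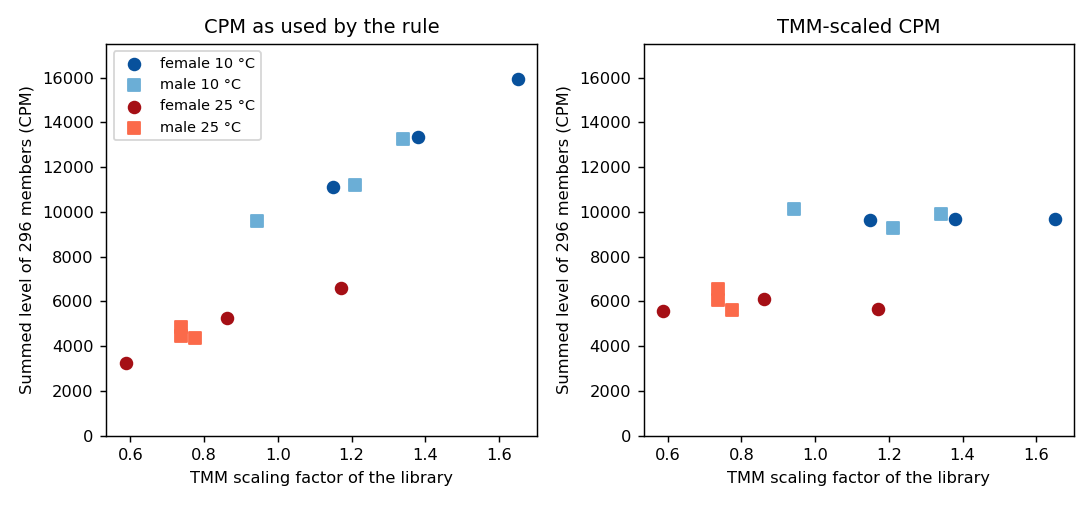
Summed level of the 296 members in each library (CPM, axis from 0) against the TMM scaling factor of that library, on CPM as the rule used them (left) and after scaling (right). On the left the sums at 10 °C climb with the factor, up to 15958 CPM in female 10 °C replicate 2. On the right the 10 °C libraries lie between 9266 and 10151 CPM and the 25 °C libraries between 5565 and 6575 CPM.

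**Figure D3:**
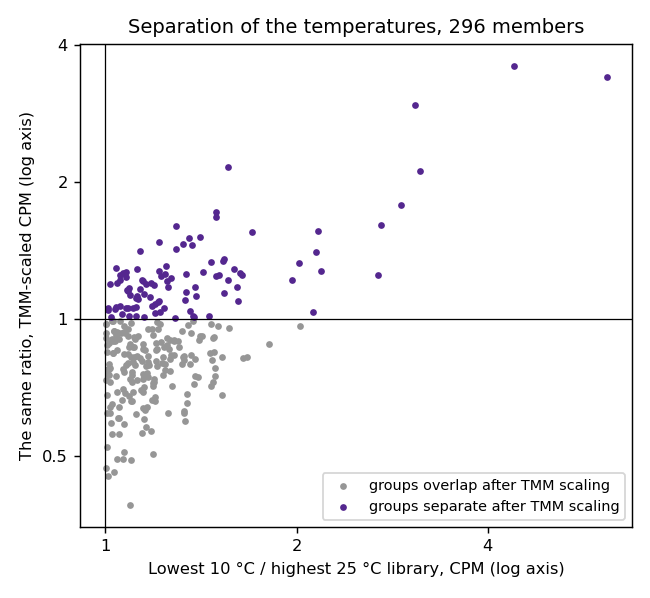
For each of the 296 members, the ratio of its lowest 10 °C library to its highest 25 °C library on CPM (horizontal) and on TMM-scaled CPM (vertical), both on log axes with lines at 1. Every point is to the right of the vertical line by the rule, and the 100 purple points above the horizontal line are the members whose temperatures did not overlap after scaling.

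The edgeR quasi-likelihood fit of all 15027 genes tested, with TMM scaling and both sexes averaged, gave the members a median log2 difference of 0.76 between 10 °C and 25 °C. The median over all genes was 0.23. At an adjusted p below 0.05 it called 130 of the 296 higher at 10 °C, where 13.7% of all genes were called so, and nothing is read from the count because the rule used these libraries. With library size alone and no TMM factor the medians were 1.39 for members and 0.88 for all genes, and 294 members were called, against 33.8% of all genes. The choice of scaling thus shifted the median of all genes by more than 0.1, and each log2 value here is best read against the median of its own scale. The count of 130 also hung on single libraries, and so did the 2054 genes called higher at 10 °C in the whole table. Among the cold libraries, omitting female replicates 1, 2 and 3 in turn left 85, 20 and 17 members called. Over all genes these fits called 1509, 58 and 70. Omitting the cold males left 26, 125 and 19 members, and 97, 2965 and 53 of all genes. Among the warm libraries, dropping female replicates 1, 2 and 4 gave 18, 143 and 91 members, and 51, 3429 and 1249 of all genes. Dropping the warm males gave 13, 8 and 63 members, and 23, 13 and 756 of all genes.

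Which libraries lay at the edges of the groups turned with the scaling. On CPM, female 10 °C replicate 2, the shallowest library, was the highest cold library for 162 members and male 10 °C replicate 2 the lowest for 147. On TMM-scaled CPM female 10 °C replicate 2 was the highest for 85 and the lowest for 99, and male 10 °C replicate 2 was the lowest for 20. At 25 °C, female replicate 2 was the highest on CPM for 200 members and female replicate 4 the lowest for 157. After scaling female 25 °C replicate 2 was the highest for 41, and male 25 °C replicate 3 for 69. On CPM, for 140 members the highest cold library was at most 2 times the lowest, and for 31 it was at least 4 times the lowest. In 23 members the highest cold library was at least 2 times the next one, and in 22 of these it was female 10 °C replicate 2. Without that library, 255 of the 296 still had a ratio of at least 2, and 241 met the whole rule.

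The number of genes that meet the rule depended most on the libraries that lie closest across the temperatures. With female 25 °C replicate 2 left out, 1778 genes passed, 295 of the 296 among them, and with male 10 °C replicate 2 left out, 1241 passed, 294 of them members. Leaving out any other library gave between 259 and 350 genes. These are the warm library with the largest TMM factor, 1.17, and the cold library with the smallest, 0.944.

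**Figure D4:**
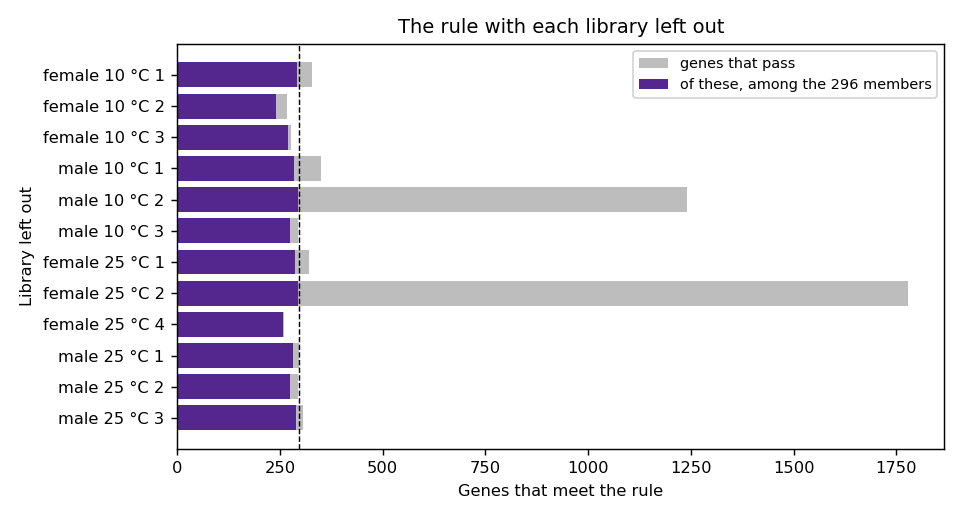
Number of genes that meet the rule when 1 library is left out (horizontal axis, from 0), with the part that belongs to the 296 members in purple and a dashed line at 296. The bars for male 10 °C replicate 2 (1241 genes) and female 25 °C replicate 2 (1778 genes) stand out from the other 10, which lie between 259 and 350.

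Whether the cold response differed between the sexes is the question of the series. The rule did not use the sex labels, but it used the levels of all 12 libraries. A gene whose temperatures overlap in either sex could not be a member. The sex tests thus cover genes already chosen for a higher cold level in both sexes. A low count of calls among them is not read as agreement between the sexes. A check of the sex labels comes first. From the 25 °C libraries fitted alone, 374 genes were at least 16-fold higher in males, none of them a member. The rule leaves little room for such a member, because each of its cold female libraries must lie above its warm males. The median level of the 374 genes, as a percentage of the mean in males at 25 °C, was 0, 8.59 and 33.0 in the female 10 °C libraries and 33.4, 55.3 and 0.134 in the male 10 °C libraries. In females at 25 °C it was 0, 2.12 and 0. The libraries labelled female 10 °C replicate 3 and male 10 °C replicate 3 thus go against their labels in these genes, and the edgeR results on sex are given also without them.

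No member passed the test between the sexes at either temperature in the edgeR fit of all libraries. In the edgeR test of females against males at 10 °C, 0 members were called at an adjusted p below 0.05 (0.0% of all genes tested) and 1 had an unadjusted p below 0.05 (0.799% of all genes tested). DESeq2 and limma voom called 0 as well, and so did edgeR without the libraries in doubt. The members' median log2 difference, females minus males, was -0.06, and it was positive for 127 of the 296.

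The member with an unadjusted p below 0.05 at 10 °C was LOC105385402, a single exon of 1395 bases. It had 71.2, 64.3 and 82.8 CPM in females and 344.2, 69.1 and 85.3 CPM in males at 10 °C. Male 10 °C replicate 1 alone stands out, and the other male libraries lie among the females. The log2 difference was -1.39 ± 0.52 (SE), with an adjusted p of 0.9999 over all genes in edgeR (0.636 to 1 over 24 alternatives). At 25 °C this gene had 26.1 to 63.8 CPM in all libraries, and the 5 other cold libraries lie between 64.3 and 85.3 CPM, just above that range.

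At 25 °C edgeR called 0 members between the sexes (0.0% of all genes tested), and 16 had an unadjusted p below 0.05, 10 higher in females and 6 higher in males, where 22.4% of all genes tested had one. Other tools called more. DESeq2 called 10 members (13.6% of the genes it tested) and limma voom with quality weights 29 (31.0%), while edgeR on the 25 °C libraries alone called 1 of 285 members tested (4.74% of all genes tested). Each of these counts is a smaller share of the members than the share of all genes given beside it. The rule used the same libraries and kept every warm level of a member below its cold ones. Whether this choice of members bears on the smaller shares was not tested.

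LOC105384715, of 6 exons with all reads unique, had the smallest p at 25 °C and was the member called with the 25 °C libraries alone. It had 1.32, 3.24 and 1.18 CPM in females and 8.96, 6.67 and 8.28 CPM in males at 25 °C. At 10 °C it had 10.3, 15.7 and 22.8 CPM in females and 29.96, 10.4 and 11.5 CPM in males. The sexes do not overlap at 25 °C and overlap at 10 °C, and the ratio between temperatures was 8.50 in females and 2.17 in males. The log2 difference of females minus males at 25 °C was -2.32 ± 0.48 (SE), with an adjusted p of 0.0842 in the edgeR fit of all 12 libraries. Without both libraries whose sex label is in doubt it was called, at an adjusted p of 0.0255 in edgeR, and with the 25 °C libraries alone at 0.0348. The first of these fits called 550 of 15353 genes between the sexes at 25 °C, and the second 592 of 12484. Over all 24 alternatives its adjusted p ran from 0.000563 in DESeq2 to 0.215.

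LOC105382171 and LOC105393301 leaned the other way at 25 °C. LOC105382171 had 7.35, 9.48 and 0 CPM in females and 0, 0 and 0.169 CPM in males at 25 °C, against 9.62 to 38.7 CPM in the cold libraries. Female 25 °C replicate 4 was thus like the males, and only 3.20% of the gene's reads were unique. Its log2 difference between the sexes, 5.87 ± 1.41 (SE, adjusted p = 0.0842 in edgeR), depends on how counts of 0 are treated. LOC105393301, with 99.1% unique reads, had 5.46, 7.51 and 2.52 CPM in females and 2.15, 1.32 and 1.58 CPM in males at 25 °C, so the sexes did not overlap. Its log2 difference was 1.33 ± 0.37 (SE, adjusted p = 0.0871 in edgeR). At 10 °C their log2 differences between the sexes were 0.12 ± 0.97 and 0.08 ± 0.35 (SE).

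A similar order at 25 °C held for LOC105381206, which had 17.1, 19.6 and 4.59 CPM in females and 4.16, 7.74 and 6.03 CPM in males, and for LOC105396832, with 3.77, 4.26 and 0.518 CPM in females and 0.287, 1.07 and 0.451 CPM in males. In both genes female 25 °C replicates 1 and 2 are high and replicate 4 lies among the males. Their edgeR adjusted p-values were 0.174 and 0.124. The reverse order was seen in LOC105387523, with 15.7, 30.3 and 12.5 CPM in females and 30.5, 30.7 and 30.1 CPM in males, and in LOC105390384, LOC105388593 and LOC105386186, whose log2 differences lay between -1.37 and -1.11. LOC105383813, with 88.1% of its reads in introns, was higher in females by 1.39 ± 0.51 (log2, SE).

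The test of the difference itself, an interaction of sex and temperature, called 0 members in edgeR (0.0% of all genes tested), and 5 had an unadjusted p below 0.05 (8.99% of all genes tested). These were LOC105382171 with -5.75 ± 1.72, LOC105384715 with 1.98 ± 0.65, LOC105393301 with -1.26 ± 0.51, LOC105386714 with 2.59 ± 1.16 and LOC105397006 with 1.04 ± 0.48 (log2 response of females minus that of males, SE), at edgeR adjusted p-values of 0.548 to 0.554. DESeq2 called 0, and so did edgeR without both libraries in doubt. Whether the rule's choice of members bears on these low counts was not tested. Limma voom called 4 (2.46% of all genes), namely LOC105382171 and LOC105396832 with the smaller response in females and LOC105386714 and LOC105398776 with the larger one. Their limma voom adjusted p-values were 0.0492 to 0.0499, just under the threshold. In female 25 °C replicate 1, LOC105386714 and LOC105398776 both stood at 0.1094 TMM-scaled CPM, under the floor of 3 reads. LOC105382171 had 0 reads in several warm libraries. For LOC105386714 the levels were 5.03, 19.1 and 6.43 CPM in females and 2.76, 4.21 and 2.19 CPM in males at 10 °C, and 0.0942, 0.573 and 1.11 CPM in females and 1.58, 2.14 and 0.789 CPM in males at 25 °C.

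Seen separately, the ratio between temperatures was at least 2 in females for 274 members, in males for 244, and in both for 222. The female ratio was above the male ratio for 153 members, and the 2 lay within 1.5 times of each other for 208. The female ratio was at least 2 times the male one in 17 members, and the male ratio at least 2 times the female one in 15. Without both libraries in doubt the ratio was at least 2 in females for 254, in males for 213 and in both for 181, the female ratio was the larger one for 175, and 186 lay within 1.5 times. The median log2 difference in the edgeR fit was 0.76 in females, where all genes had 0.18, and 0.73 in males, where all genes had 0.15. Without both libraries in doubt the members' medians were 0.77 and 0.74. Taken in 1 sex at a time, with 3 libraries against 3, edgeR called 0 members higher at 10 °C in females (0.0% of all genes tested) and 0 in males (0.0%). In each sex, 130 members had an unadjusted p below 0.05 with the higher level at 10 °C, against 6.46% of all genes in females and 22.5% in males. Without both libraries in doubt edgeR again called 0 in each sex, and the unadjusted counts were 85 in females (3.82% of all genes) and 87 in males (14.5%). With all 12 libraries DESeq2 called 66 members in females (1.45% of the genes it tested) and 108 in males (18.1%). Limma voom called 94 in females (685 of 15027 genes) and 129 in males (4096). In males edgeR called 75 members without female 25 °C replicate 4 (2327 among all genes). It called 47 without male 10 °C replicate 2 (2228) and 35 without female 25 °C replicate 2 (1175). Any other single omission left 0 in males, and no single omission gave a member called in females. These are counts in the contrast that chose the members and nothing is read from them.

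**Figure D5:**
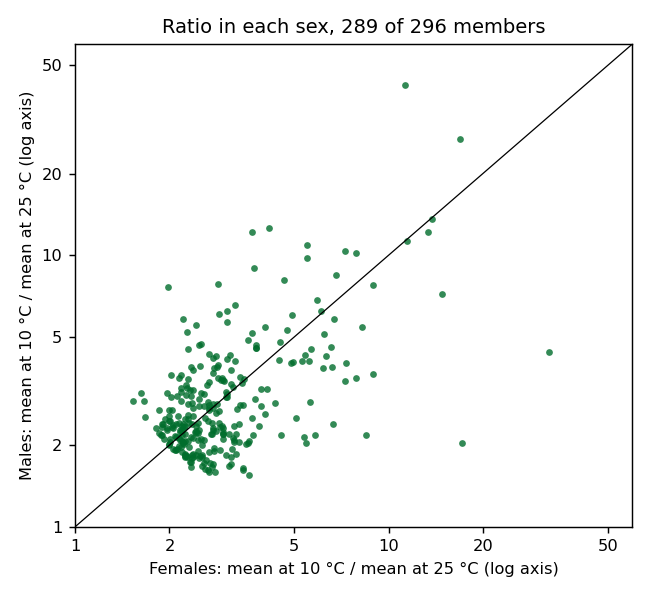
Ratio of the mean at 10 °C to the mean at 25 °C in females (horizontal) and in males (vertical), both on log axes, for 289 members, with the line of equal ratios. The 7 members whose 25 °C mean in either sex is at or under 0.295 CPM are not drawn, and 222 of the 296 members have a ratio of at least 2 in both sexes.

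The gene models of the members were of ordinary size. Their median exon length was 1885 bases against 1891 in the other LOC genes at the same levels, the median number of exons was 7 in both, and the whole gene spanned a median of 6583 bases against 7135. Members made up 3.07% of the genes at these levels. With those genes cut into 4 equal classes by exon length, from the shortest, members made up 2.11%, 4.07%, 3.28% and 2.82%. In 4 such classes by gene length they made up 2.36%, 4.11%, 3.86% and 1.95%, a lower share in both the shortest and the longest class. By level they made up 3.53%, 2.78%, 3.11% and 2.86% in the 4 classes of mean CPM at 10 °C from the lowest.

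Reads in introns made up a median of 4.09% of a member's reads and 5.14% of those of the other genes. Pooled over the members, introns took 5.23% to 9.09% of the reads at 10 °C and 5.23% to 7.77% at 25 °C, so the temperatures overlap in this measure, with female 10 °C replicate 2 highest. Introns took more than 20% of the reads in 43 members, more than 50% in 16, and none in 12. LOC105393143 (99.7%), LOC105388971, LOC105383813, LOC105387049 (85.7%) and LOC105394901 had the highest shares. LOC105393143 had 4.15, 6.68 and 4.06 CPM in females and 9.53, 1.76 and 4.80 CPM in males at 10 °C and at most 1.15 CPM at 25 °C. For such genes most of the counted reads lie outside the annotated exons, and reads of an unlisted or overlapping transcript were not told apart, since nothing in the sources used here says whether counting used strand. In all, 38 members overlap another listed feature, and the share among the other genes is not given here. At the other end, LOC105382835 (2 exons, 4417 exon bases), LOC105381825 and LOC105381554 had no intron read, with ratios of 4.29, 2.56 and 3.06.

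Copies of similar sequence touch some members. Unique reads made up less than 90% of the total in 55 members, less than 50% in 25, and 0 in 7. The median unique share was 99.32% in members and 99.37% in the other LOC genes at the same levels. The 10% of genes with the lowest shares lay at or below 64.6% in members and 81.87% in the others. This difference was not tested. LOC105383535 and LOC105391728, on scaffolds NW_011952014 and NW_011952357, both have 2 exons of 1582 bases in all, no unique read, and 3041 and 3035 reads. Their means of 24.21 and 24.04 CPM at 10 °C and 9.01 and 8.76 CPM at 25 °C are alike within the spread between libraries, and the authors' counting could have split 1 set of reads between them, so they may not be independent members. When the rule was applied to unique reads alone, 249 of the 296 met it, and when it was applied to exon reads, 241 did. The rule was met on total, unique and exon reads alike by 213 members.

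Members were scattered over 205 of the 1428 scaffolds in the tables. A member stood next to another on its scaffold in 21 of 296 cases (7.09%), and 343 of the other 9347 genes at these levels (3.67%) stood next to a member. Besides the run of 3, there were 9 pairs, and in the assembly ilPluXylo3.1, in which both genes of all 9 are listed, the genes of 8 pairs are also direct neighbours. The pairs include LOC105394054 with LOC105394055, LOC105392786 with LOC105392788, and LOC105386186 with LOC105386188. The pair LOC105398255 and LOC105398300 is the one with another gene between them there.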

How the data were processed

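The deposited tables give, per library and gene, total, unique, exon, exon-exon and intron read counts with TPM and RPKM values that the authors computed per exon length; no aligner, counter, strand setting or genome build is named (not given in the sources used here). Scaffold positions are those in the deposited tables, and other columns (exon number, lengths, transcripts, the ratio of unique to total exon reads, and a further expression value) were likewise deposited by the authors. Total gene read counts as deposited were divided by their sum per library to give CPM (per 1000000), on which members were found. The authors' TPM were used to compare levels between genes, and their RPKM were not used. Counts were fitted in edgeR 4.0.16 (R 4.3.3; TMM, filterByExpr at a count of 10 per library and 15 in all, robust quasi-likelihood test, 4 group means, Benjamini-Hochberg adjustment over all 15027 genes, threshold 0.05). Each SE of an edgeR log2 difference is the size of that difference divided by the square root of its F statistic. It was thus derived from the test and was not a direct output of the fit. DESeq2 1.42.0 and limma 3.58.1 were alternatives, as were other scalings, libraries left out in turn, the replicate block and other forms of the rule. The fits of the averaged temperature contrast were also run on simulated counts, drawn without the scaling factors of the libraries. The rule, the sex tests and unequal scaling between temperatures were not tested in that way. No row of the tables lacked a name.

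Members, gene lists and tests were chosen with earlier results of these data known. Genes named are the 12 with the highest mean at 10 °C, the 10 with the widest gap, the 10 with the largest ratio, those next to each limit, up to 10 with the smallest p in each sex test, runs of at least 3 neighbours, and the 5 with the highest and the 5 with the lowest share of intron reads; other names were chosen after their values were seen. Lists by product could not be filled, and no sequence of a member was used here. Pooled over genes with at least 10 reads in a pair of replicates, counts differed well beyond counting error. The chi-square per degree of freedom was 29.73 to 445.5, on counts adjusted for library size alone. The part of counting error in members with few reads was not tested. Male-high genes were taken from the 25 °C libraries fitted alone, at least 16-fold higher in males with at least 5 CPM there. Libraries are pools that the labels call biological replicates.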

Additional observations from a re-analysis of the deposited data

Results flagged for a closer look

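In 4 of the most read or widest-gap members, 1 library lay far from the other 5 of its temperature by Dixon's test at the 95% level. Each time it was female 10 °C replicate 2, the shallowest library and the one with the largest TMM factor. LOC105382588 had 397.4 CPM there against at most 228.0 CPM in the other cold libraries. LOC105386891 had 87.1 CPM there and LOC105387485 had 39.3 CPM (39.28 before rounding), against at most 19.2 and 19.6 CPM in the others. LOC105395530 had 31.3 CPM (31.33 before rounding) there against at most 10.3 CPM. For values that no rule chose, chance flags about 1 in 20 groups. Over all members, 65 of 592 groups of 6 libraries passed the same limit, 41 at 10 °C and 24 at 25 °C. The rule chose these same values, so the rate of 1 in 20 does not apply to them. No share over other genes is given, and nothing is read from the count. Female 10 °C replicate 2 was the high library in 37 of the 41, and female 25 °C replicate 2 in 20 of the 24. The part of depth or scaling in these values was not tested.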

How the results depend on the processing

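The number of members depends on scaling and on the limits. On TMM-scaled CPM 101 genes met the rule, 53 of them members. On CPM 58 met it with a ratio of at least 4, and 498 with no limit on the ratio. On the authors' TPM 258 genes met it, 136 of them members. Leaving out single libraries gave 259 to 1778. In 16 of 21 alternatives, that on TPM included, the count was within 1.5 times of 296, which does not say that the genes were the same. The count of 130 members called higher at 10 °C, with 2054 among all genes, became 294 with library size alone (chosen after seeing the data, 5081 among all genes). It became 224 in DESeq2 (3604 among all genes) and 225 in limma voom (4443). Without both libraries that go against their sex label it was 1 (LOC105388497), the only gene called higher at 10 °C in that fit. With single libraries left out it was 8 to 143, while the count over all genes was 13 to 3429. The median log2 difference was 1.43 in females and 1.35 in males with library size alone. In males it was 0.84 without both libraries in doubt and female 10 °C replicate 2. With single libraries left out it was 0.71 to 0.80 in females and 0.72 to 0.85 in males. Between the sexes at 25 °C, 10 members were called in DESeq2 (2041 among all genes) and 29 in limma voom (4658). There was 1 without both libraries in doubt (550 among all genes) and 1 with the 25 °C libraries alone (592). With single libraries left out 0 to 7 were called, and the 7 came without female 25 °C replicate 4 (1745 among all genes). For the interaction limma voom called 4, and 0 to 0 were called with single libraries left out. Between the sexes at 10 °C all 24 alternatives called 0. The causes were not tested.

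Replicate numbers were no evidence of pairing: of 15 same-numbered pairs of libraries, 2 had deviations correlated above 0.1, from -0.716 to 0.603, and 2 of 12 libraries correlated best with their own number. With the replicate block and both sexes averaged, 1 member was called higher at 10 °C (LOC105382171, edgeR adjusted p = 0.0456). It was the only gene called higher in that contrast among 15027 tested. In males alone the block fit called 15 members higher at 10 °C, and 482 among all genes. In females alone it called 0 members and 0 among all genes. In any sex test 0 members were called. Few libraries, 2 doubtful sex labels and the unequal scaling factors of the temperatures limit all of these counts.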
